A study of Mus musculus with 4 samples.

Results

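A set of 10 genes of bile acid synthesis, conjugation, transport and feedback control was followed in the livers of DDI2-KO and WT mice, and none of them differed between the genotypes past an adjusted p of 0.05. The 10 genes were taken by name from the 48709 gene identifiers in the count files, namely Cyp7a1, Cyp7b1, Cyp8b1, Cyp27a1, Baat, Slc10a1, Abcb11, Slco1b2, Nr1h4 and Nr0b2. All 10 were detected in all 4 libraries and passed the filter on low counts. Their largest differences lay between livers of the same genotype, in the synthesis enzymes Cyp8b1, Cyp7b1 and Cyp7a1. The bile acid receptor gene Nr1h4 and its target Nr0b2 were higher in both DDI2-KO libraries than in both WT libraries, by 0.55 and 0.88 on the log2 scale, without passing the adjusted threshold.

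The liver makes bile acids from cholesterol along a classical route, which starts with CYP7A1, and an alternative route, which uses CYP27A1 and CYP7B1. CYP8B1 sets how much of the product becomes cholic acid, BAAT joins bile acids to taurine or glycine, ABCB11 exports them into bile, and SLC10A1 and SLCO1B2 take them up again from portal blood. Bile acids bind the nuclear receptor FXR, encoded by Nr1h4, which raises the repressor SHP, encoded by Nr0b2, and SHP in turn lowers transcription of Cyp7a1 and Cyp8b1.

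Liver RNA of untreated C57BL/6 mice was sequenced as 4 mRNA libraries, 2 per genotype. DDI2-KO mice (genotype label DDI2-/-) were Ddi2 flox/flox with Cre driven by the albumin promoter, which is active in hepatocytes. Ddi2 encodes a protease that cleaves the transcription factor NRF1. Whether other cells of these livers kept Ddi2 was not tested. WT mice were littermate controls, and whether they carried floxed alleles is not stated for these samples. The study used young adult mice of both sexes, and neither the sex, the exact age nor the hour of collection is given for the single mice.

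Reads on genes ranged from 22501208 to 34109018 per library. Depth split by genotype, with WT at 34109018 and 31532247 and DDI2-KO at 25582344 and 22501208. The number of genes detected split likewise, at 18702 and 18627 against 17658 and 17419. Reads assigned to no gene, relative to those on genes, were 5.11% and 4.70% for WT against 2.53% and 3.65% for DDI2-KO. The part of these differences in the results was not tested. Levels are given as CPM, read counts scaled to a common library total with TMM factors from edgeR, and comparisons between genes as RPKM, the CPM divided by the length of the annotated exons in kilobases. Ddi2 itself had 141 and 123 CPM in WT and 157 and 164 CPM in DDI2-KO, and differed by 0.28 on the log2 scale (adjusted p = 0.349 and standard error 0.17, edgeR). This count does not check the deletion, because exon 2, drawn between the LoxP sites, holds 130 of the 9553 bases of the longest annotated transcript. The paper reports PCR genotyping of its mice and DDI2 immunoblots of WT and DDI2-KO livers after injection of PBS or cadmium. The 6 hepatocyte markers were present in every library and summed to between 150982 and 185243 CPM, and the 7 bile duct markers to between 76.8 and 88.1 CPM. Xist was read in every library, at 520 and 373 CPM in WT and 47.5 and 143 CPM in DDI2-KO. It lay at -2.23 on the log2 scale (adjusted p = 0.120, edgeR). Ddx3y, Eif2s3y, Kdm5d and Uty of the Y chromosome had 0 reads in all 4, where 3 reads would stand for 0.0892 to 0.131 CPM. No library thus read as male. Markers of red cells summed to 86.9 and 168 CPM in WT and 51.2 and 45.4 CPM in DDI2-KO, with Hba-a1 lower at -1.94 on the log2 scale (adjusted p = 0.0338, edgeR). The 5 markers of sinusoidal endothelium summed to 387 and 342 CPM in WT and 350 and 334 CPM in DDI2-KO. Among them Stab2 was lower at -1.10 on the log2 scale (adjusted p = 0.0288, edgeR). Lyve1 and Stab1 also lay below 0, at -0.67 and -0.04, while Clec4g and Fcgr2b lay above 0, at 0.22 and 0.11. All 5 stellate markers and all 4 of T and B cells lay below 0, at medians of -0.42 and -0.38. Of the 5 Kupffer markers 4 lay above 0 and 1 below, at a median of 0.23. None of these 3 lists held a gene with an adjusted p under 0.05 (edgeR). Of all 13699 tested genes, 6672 lay above 0 and 7027 below. No marker list lacked reads in any library, and the part of these cells in the results was not tested. In whole liver, fewer cells of a type and less RNA per cell cannot be told apart.

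The promoters of Nr1h4, Nr0b2 and Cyp8b1 are shown because the first 2 genes had the lowest p-values among the 10 and the last varied most between livers. RefSeq promoters of GRCm38.p6 were found for 7 of the 10 genes. Each line gives the 250 bases before the annotated start, 5′ to 3′ on the strand of the gene, with matches to a searched motif in capitals.
Nr1h4, chr10:89506659-89506908, minus strand: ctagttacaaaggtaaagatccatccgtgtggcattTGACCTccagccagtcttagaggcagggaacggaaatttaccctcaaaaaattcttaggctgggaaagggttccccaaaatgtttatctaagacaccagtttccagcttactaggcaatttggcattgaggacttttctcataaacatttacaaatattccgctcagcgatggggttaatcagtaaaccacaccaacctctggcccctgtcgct
Nr0b2, chr4:133553126-133553375, plus strand: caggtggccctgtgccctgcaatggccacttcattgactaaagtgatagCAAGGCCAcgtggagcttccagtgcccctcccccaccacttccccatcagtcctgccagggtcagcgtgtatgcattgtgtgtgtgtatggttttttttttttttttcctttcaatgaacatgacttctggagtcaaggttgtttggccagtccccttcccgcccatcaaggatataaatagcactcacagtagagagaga
Cyp8b1, chr9:121916306-121916555, minus strand: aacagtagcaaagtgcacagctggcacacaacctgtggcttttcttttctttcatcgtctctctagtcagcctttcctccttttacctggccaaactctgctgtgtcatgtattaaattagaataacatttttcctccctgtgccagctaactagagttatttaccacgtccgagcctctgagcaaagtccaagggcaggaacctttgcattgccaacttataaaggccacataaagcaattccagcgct
The motifs, searched on both strands of 300 bases that run to 50 bases past the start, were the nuclear receptor half-site AGGTCA, its longer form CAAGGTCA, the variant CAAGGCCA, which does not hold the half-site, the inverted and the direct repeat of the half-site with 1 base between (IR1 and DR1), the HNF1 motif and the D-box TTATGNAA. The Nr1h4 window held AGGTCA on its opposite strand, printed as TGACCT, a match found in 16.3% of the 32851 promoters of the table. The Nr0b2 window held CAAGGCCA, found in 2.40% of them. None of these letter strings was found in the Cyp8b1 window. The start used for Nr1h4 lies inside the annotated gene, which extends upstream of it.

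The levels of the 10 genes were first ordered per length over the 4 libraries. Slc10a1, the sodium-dependent uptake carrier, was highest at 451 ± 79.7 RPKM (SD over 4 libraries), and its range did not overlap that of any other gene of the 10. Cyp27a1 followed at 219 ± 36.5 RPKM, then Slco1b2 at 148 ± 45.0, Abcb11 at 121 ± 17.9, Baat at 119 ± 23.0, Cyp8b1 at 75.0 ± 54.9, Nr1h4 at 60.6 ± 14.5, Cyp7a1 at 39.1 ± 20.6, Nr0b2 at 17.8 ± 8.21 and Cyp7b1 at 9.07 ± 4.54 RPKM. From Cyp27a1 downwards the range of each gene over the livers overlapped that of the next. Within libraries, Slco1b2 exceeded Abcb11 and Cyp7a1 exceeded Nr0b2 in all 4, Cyp8b1 exceeded Nr1h4 in 2 of 4, and the other overlapping neighbours kept their order in 3 of 4.

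**Figure D1:**
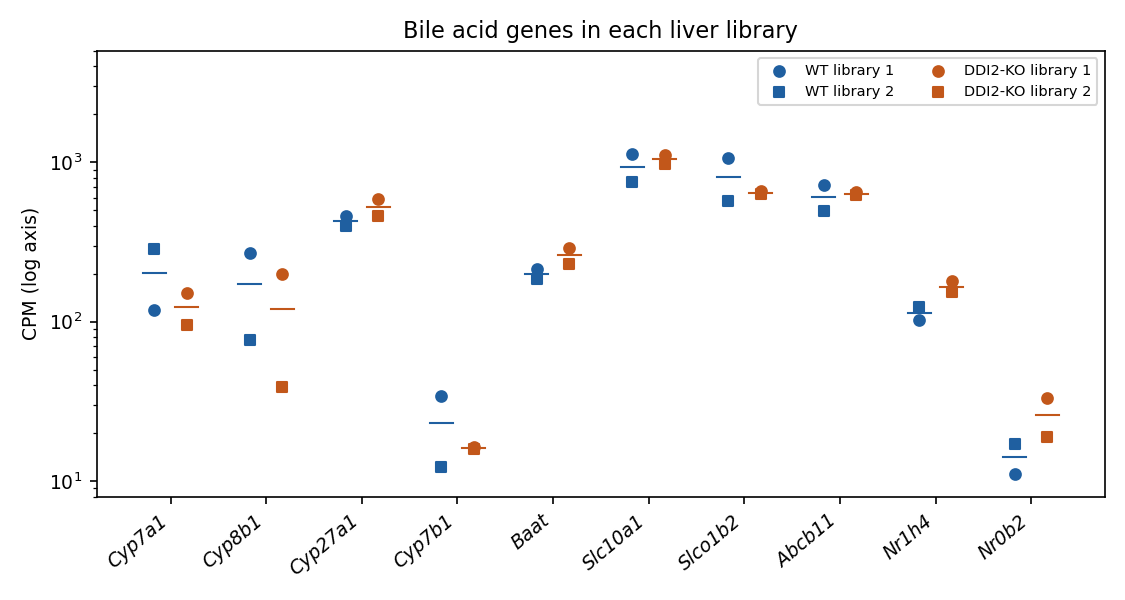
CPM (log axis) of the 10 bile acid genes in each of the 4 libraries, WT in blue and DDI2-KO in orange, with circles for library 1, squares for library 2 and a bar at the group mean. Cyp8b1 was low in 1 library of each genotype, at 76.4 and 39.2 CPM, while Nr1h4 and Nr0b2 were higher in both DDI2-KO libraries than in both WT libraries.

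The genotypes were then compared to ask whether loss of DDI2 in hepatocytes changes this pathway in resting liver. By the quasi-likelihood test of edgeR, 0 of the 10 genes reached an adjusted p of 0.05, and 2 had an unadjusted p under 0.05. Of all 13699 tested genes 2.53% passed the adjusted threshold, 1.33% higher and 1.20% lower in DDI2-KO, and 23.5% had an unadjusted p under 0.05, so 2 of 10 was no excess over the background. DESeq2, limma-voom and limma-trend also called 0 of the 10. Under DESeq2 the lowest adjusted p-values among the 10 were 0.0513 for Nr0b2, close to the threshold, and 0.0779 for Nr1h4. The log2 fold change was above 0 in 6 genes and below 0 in 4, with a median of 0.11, against a median of -0.015 over all tested genes. In 4 of the 10, both DDI2-KO libraries lay above both WT libraries. Such separation in either direction was found in 55.7% of all tested genes, with 28.0% higher and 27.7% lower in DDI2-KO.

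Nr1h4 (ENSMUSG00000047638, chr10:89454234-89533585, minus strand), which encodes the bile acid receptor FXR, had 102 and 124 CPM in WT and 179 and 153 CPM in DDI2-KO. Both DDI2-KO values lay above both WT values. The means were 113 ± 15.8 CPM in WT and 166 ± 18.4 CPM in DDI2-KO (SD, n = 2), which differed by 0.55 on the log2 scale (95% confidence interval 0.13 to 0.97, standard error 0.18, adjusted p = 0.126, edgeR). This value stayed between 0.42 and 0.70 whichever library was omitted.

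Nr0b2 (ENSMUSG00000037583, chr4:133553376-133556536, plus strand) encodes SHP, a receptor that binds no DNA itself and represses other nuclear receptors. It had 11.2 and 17.2 CPM in WT and 33.1 and 19.0 CPM in DDI2-KO. The lower DDI2-KO library exceeded the higher WT library by less than the DDI2-KO libraries differed from each other. The log2 fold change of 0.88 had a standard error of 0.31, a 95% confidence interval of 0.13 to 1.63 and an adjusted p of 0.160 from edgeR. Without DDI2-KO library 1 it was 0.43, the lowest of the values with one library left out. The ratio of Nr0b2 to Nr1h4 per length was 0.222 and 0.281 in WT, 0.377 and 0.253 in DDI2-KO, so the groups overlapped in it.

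Cyp7a1 (ENSMUSG00000028240, chr4:6265612-6275633, minus strand), the rate-limiting enzyme of the classical route, had 118 and 287 CPM in WT and 152 and 95.6 CPM in DDI2-KO. WT library 2 was above the other libraries, and the remaining WT value lay between the DDI2-KO values. DDI2-KO over WT came to -0.71 on the log2 scale (95% confidence interval -1.92 to 0.50, standard error 0.47, adjusted p = 0.428, edgeR), and without WT library 2 it was 0.06. Cyp7a1 is known to follow the time of day through the clock output factor DBP. Dbp, named after its values were seen, had 39.9 and 91.6 CPM in WT and 29.2 and 10.4 CPM in DDI2-KO. It was thus also highest in WT library 2 and lowest in DDI2-KO library 2. In contrast, Dbp was higher in WT library 1 than in DDI2-KO library 1, where Cyp7a1 was lower. The part of Dbp in the Cyp7a1 values was not tested.

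Cyp8b1 (ENSMUSG00000050445, chr9:121914356-121916305, minus strand), the enzyme that directs synthesis to cholic acid, had 270 and 76.4 CPM in WT and 199 and 39.2 CPM in DDI2-KO. Each genotype held 1 high and 1 low liver, and the groups overlapped. The log2 fold change was -0.54 with a standard error of 1.20, and its 95% confidence interval of -4.49 to 3.42 covered large changes either way (adjusted p = 0.838, edgeR). It was 0.64 without WT library 1 and 0.21 without DDI2-KO library 2.

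Cyp8b1 and Cyp7a1 did not follow each other over the 4 livers. The ratio of Cyp8b1 to Cyp7a1 per length, which no scaling between libraries can move, was 4.87 and 0.570 in WT and 2.82 and 0.877 in DDI2-KO. Cyp8b1 thus exceeded Cyp7a1 in 1 library of each genotype and lay below it in the other.

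Cyp7b1 (ENSMUSG00000039519, chr3:18071950-18243338, minus strand) hydroxylates oxysterols in the alternative route and is known for higher levels in male than in female mouse liver. It had 34.1 and 12.2 CPM in WT and 16.4 and 15.8 CPM in DDI2-KO. The WT libraries lay on either side of the DDI2-KO libraries. The value of -0.52 on the log2 scale (adjusted p = 0.588, standard error 0.49, edgeR) had a 95% confidence interval from -1.81 to 0.76, and without WT library 1 it was 0.40.

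Cyp27a1 (ENSMUSG00000026170, chr1:74713574-74737892, plus strand), the mitochondrial sterol hydroxylase that serves both routes, had 459 and 396 CPM in WT and 585 and 460 CPM in DDI2-KO. WT library 1 and DDI2-KO library 2 were nearly equal, so the separation of the groups rested on a narrow gap. On the log2 scale DDI2-KO was 0.29 higher (95% confidence interval -0.16 to 0.74, standard error 0.20, adjusted p = 0.410, edgeR).

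Baat (ENSMUSG00000039653, chr4:49489422-49506557, minus strand), which conjugates bile acids to amino acids, had 214 and 186 CPM in WT and 292 and 230 CPM in DDI2-KO. Both DDI2-KO libraries were above both WT libraries. The difference of 0.38 on the log2 scale had a 95% confidence interval of -0.06 to 0.82 (standard error 0.19, adjusted p = 0.267, edgeR).

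The carriers on the sinusoidal side differed little between the DDI2-KO livers and more between the WT livers. Slc10a1 (ENSMUSG00000021135, chr12:80953183-80968705, minus strand), which encodes the uptake carrier NTCP, had 1131 and 747 CPM in WT and 1104 and 981 CPM in DDI2-KO. Slco1b2 (ENSMUSG00000030236, chr6:141629518-141686646, plus strand), a sodium-independent uptake carrier, had 1057 and 568 CPM in WT and 658 and 633 CPM in DDI2-KO. In both genes the WT libraries enclosed the DDI2-KO libraries. The log2 fold change was 0.15 for Slc10a1 (95% confidence interval -0.37 to 0.67, adjusted p = 0.731, edgeR) and -0.33 for Slco1b2 (95% confidence interval -0.99 to 0.32, adjusted p = 0.524, edgeR). The direction was not settled for either, since Slc10a1 was at -0.12 without WT library 2 and Slco1b2 at 0.19 without WT library 1.

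Abcb11 (ENSMUSG00000027048, chr2:69238282-69342616, minus strand), the bile salt export pump of the canalicular membrane and a known FXR target, had 715 and 496 CPM in WT and 650 and 623 CPM in DDI2-KO. The WT libraries again enclosed the DDI2-KO libraries. Its log2 value of 0.07 (adjusted p = 0.872, standard error 0.21, edgeR) had a 95% confidence interval of -0.41 to 0.56, and it was -0.17 without WT library 2. The ratio of Slc10a1 to Abcb11 per length was 3.70 and 3.52 in WT and 3.98 and 3.68 in DDI2-KO, a narrower range than either gene had alone in CPM over the WT livers.

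**Figure D2:**
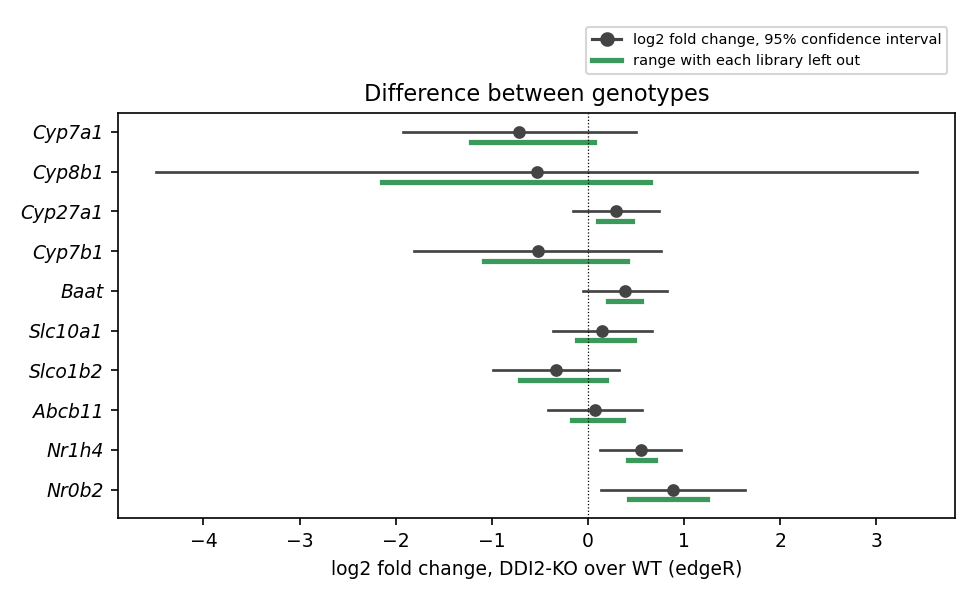
Log2 fold change of DDI2-KO over WT for each gene from edgeR, with its 95% confidence interval in dark grey and, in green, the range of the value when each library is left out in turn. The intervals of Nr1h4 and Nr0b2 lie above 0 before adjustment over all genes, and that of Cyp8b1 runs from -4.49 to 3.42.

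The spread between livers of one genotype was set beside that of all tested genes. In the median tested gene, the higher library of a group exceeded the lower by 1.14-fold in WT and 1.21-fold in DDI2-KO. For Cyp8b1 the difference was 3.53-fold in WT and 5.09-fold in DDI2-KO, at percentiles 99.0 and 99.2 of the tested genes. Cyp7b1 differed 2.80-fold between the WT libraries (percentile 98.3) and 1.04-fold between the DDI2-KO libraries (percentile 10.6). Cyp7a1 differed 2.42-fold in WT (percentile 97.4) and 1.58-fold in DDI2-KO (percentile 85.1). In contrast, Cyp27a1 and Baat stayed within 1.27-fold in both groups. The carriers were spread widely in WT, where Slco1b2 differed 1.86-fold (percentile 94.0), Slc10a1 1.52-fold (87.4) and Abcb11 1.44-fold (84.3), and little in DDI2-KO, at percentiles 11.5, 32.8 and 12.1. Nr0b2 differed 1.54-fold in WT and 1.75-fold in DDI2-KO (percentiles 88.2 and 89.7), and Nr1h4 1.22-fold and 1.17-fold (percentiles 65.4 and 43.3). Marker sums of liver zones also varied within WT, where 8 pericentral genes summed to 13210 and 8195 CPM, against 12671 and 11039 CPM in DDI2-KO, and 8 periportal genes to 5215 and 6647 CPM against 5341 and 4443 CPM. None of these genes passed the adjusted threshold in edgeR. An unadjusted p under 0.05 was found for 2 pericentral genes and 1 periportal gene, against 23.5% of all tested genes. Over all tested genes, 6672 had a log2 fold change above 0 and 7027 below. All 8 periportal genes lay below 0, with a median of -0.36, while 6 pericentral genes lay above 0 and 2 below, with a median of 0.11. Their part in the values of the 10 genes was not tested.

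**Figure D3:**
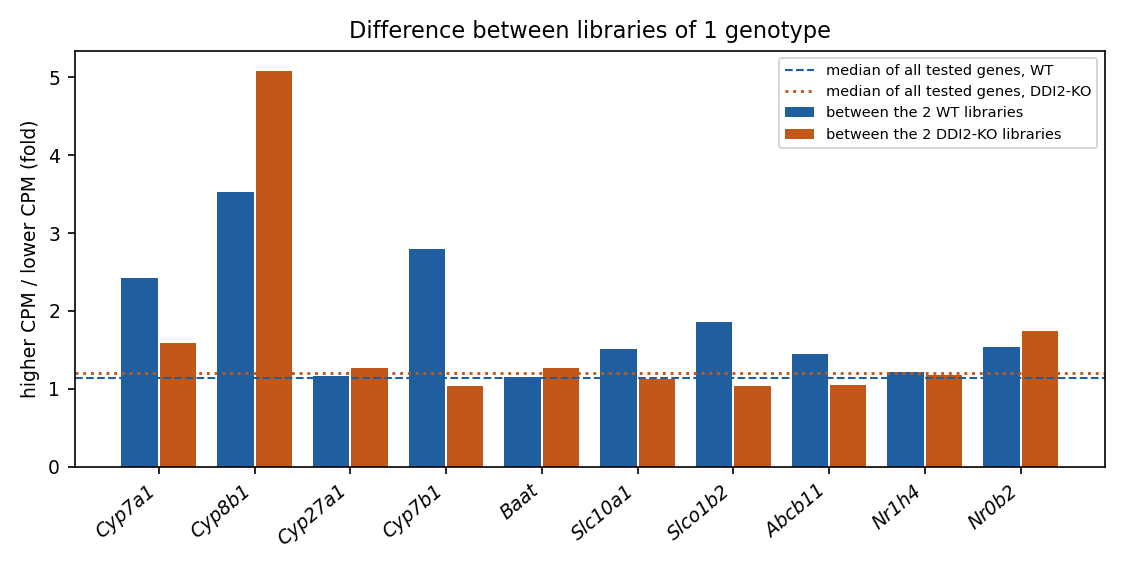
Fold between the higher and the lower library of each genotype for the 10 genes, in CPM, with WT in blue and DDI2-KO in orange, and lines at the median of all tested genes (1.14-fold in WT, 1.21-fold in DDI2-KO). Cyp8b1 stood highest in both genotypes, at 3.53-fold and 5.09-fold.

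Beyond the 10 genes, a list of 57 other genes of bile acid handling was read from the same fit. Of these, 53 passed the filter on low counts, 25 with a log2 fold change above 0 and 28 below, with a median of -0.016. A single gene passed the adjusted threshold, lower in DDI2-KO as were 1.20% of all tested genes, and 12 of the 53 had an unadjusted p under 0.05, near the background of 23.5%. The gene that passed was Slco1a1 (ENSMUSG00000041698, chr6:141907282-141946962, minus strand), a sinusoidal carrier of bile acids and other organic anions whose level is known to be higher in males. Slco1a1 had 270 and 196 CPM in WT, 82.2 and 77.0 CPM in DDI2-KO. Both DDI2-KO livers were far below both WT livers. On the log2 scale the difference was -1.55 (95% confidence interval -2.02 to -1.09, standard error 0.20, adjusted p = 0.0186, edgeR). Xist was likewise lower in both DDI2-KO libraries than in both WT libraries, and its part in this result was not tested. Ddx3y, Eif2s3y, Kdm5d and Uty had 0 reads in every library, so none of the 4 libraries read as male. Slco1a1 passed under all 14 alternatives tried, with adjusted p from 1.21e-09 under DESeq2 to 0.0381 in edgeR without DDI2-KO library 1. Of the 50-base stretches of its transcript, 2.26% occur in transcripts of other genes, among them Slco1a5 and Slco1a4.

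Cyp2c70, which makes the muricholic acids of mice, came closest among the enzymes, with 661 and 646 CPM in WT and 1048 and 1236 CPM in DDI2-KO. The difference of 0.81 on the log2 scale had a standard error of 0.18 and an adjusted p of 0.0559 from edgeR. It was past the threshold in 4 of 14 alternatives. These were DESeq2 (adjusted p = 0.00147) and edgeR without the filter on low counts (0.00450), with library totals only (0.0486) or with the replicate number as a block (0.0235). It was not past the threshold under limma-voom (0.0662) or limma-trend (0.0689). With one library left out the log2 difference stayed between 0.69 and 0.92. Akr1c6, an aldo-keto reductase, was at -0.17 (adjusted p = 0.638, edgeR). No gene of the 9 tested for initial steps and the sterol ring passed, with 4 above 0 and 5 below.

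Genes of side-chain shortening and peroxisomes lay mostly above 0, 9 of 10, against 6672 of all 13699 tested genes. Their median log2 fold change was 0.29, with none past the adjusted threshold in edgeR (1 of 10 with an unadjusted p under 0.05, against 23.5% of all tested genes). Slc27a5, the ligase that activates bile acids for conjugation, was at 0.42 on the log2 scale (adjusted p = 0.213, edgeR), and Scp2, a thiolase and sterol carrier, 0.20 (adjusted p = 0.540, edgeR). Of the Scp2 transcript, 41.4% of the 50-base stretches also occur in other genes, so its count is uncertain.

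The sulfotransferases Sult2a8 and Sult2a1, whose family sulfates bile acids, lay in opposite directions. Sult2a8 had 585 and 278 CPM in WT and 194 and 224 CPM in DDI2-KO, or -1.05 on the log2 scale (adjusted p = 0.133, edgeR). Sult2a1 had 40.2 and 25.5 CPM in WT and 60.6 and 65.6 CPM in DDI2-KO, or 0.94 on the log2 scale (adjusted p = 0.0665, edgeR), and 33.2% of its stretches are shared with paralogs. Sult2a8 was at -0.41 without WT library 1 and -1.49 without WT library 2. Sult2a1 was at 1.31 without WT library 1 and 0.65 without WT library 2. Under DESeq2 both were past the threshold, with adjusted p = 0.00908 and 0.00518.

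Of the other uptake genes, Ephx1 was at -0.01 and Slco2b1 at -0.09 on the log2 scale (adjusted p = 0.984 and 0.846, edgeR). Among the 9 tested export genes none passed, with 3 above 0 and 6 below and 1 with an unadjusted p under 0.05 (edgeR), against 23.5% of all tested genes. The conjugate exporter Abcc2 was at -0.33 (adjusted p = 0.284, edgeR) and the sterol exporter subunit Abcg5 at -0.32 (adjusted p = 0.490, edgeR). Among the 15 regulators none passed either, with 6 above 0 and 9 below and 4 with an unadjusted p under 0.05 (edgeR), near the same background of 23.5%. Hnf4a, a hepatocyte factor that drives several of these genes, was at 0.23 and Rxra, the partner of FXR, at 0.04 (adjusted p = 0.514 and 0.937, edgeR). Fabp6 and Fgf15, normally expressed in the ileum, had 0 reads in all libraries and were not detectable at this depth. Slc10a2, the ileal carrier that bile duct cells also express, had 10.9 and 38.4 CPM in WT and 7.11 and 10.1 CPM in DDI2-KO, or -1.52 on the log2 scale (adjusted p = 0.298, edgeR) that was -0.35 without WT library 2 and -2.15 without WT library 1, where its adjusted p was 0.00555.

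**Figure D4:**
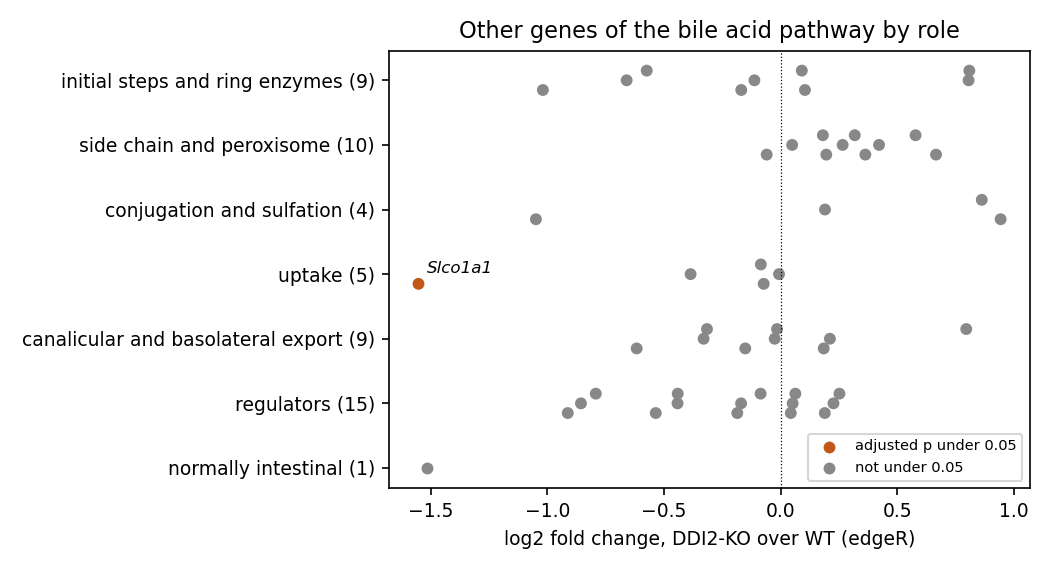
Log2 fold change of DDI2-KO over WT (edgeR) for the 53 tested genes of the wider list, in rows by role, with the number tested in brackets; each point is 1 gene and its height within a row carries no value. Slco1a1, in orange at -1.55, is the single gene with an adjusted p under 0.05.

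The pattern over libraries most like that of Nr1h4, the gene with the smallest p among the 10, was sought among the 53 tested genes of the wider list. Likeness was the root-mean-square distance of log2 CPM, centred on each gene's mean, over the 4 libraries. Pex5, the import receptor of peroxisomes, was nearest at 0.12, followed by Slc27a5 at 0.15 and Hnf4a at 0.19, against a median distance of 0.39. This is a description over 4 libraries, in which all genes share the same reads and scaling factors.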

How the data were processed

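RNA was extracted with the RNeasy kit and libraries were made with the TruSeq Stranded mRNA protocol. The authors deposited raw counts, reads per Ensembl gene and library. The submitters' processing notes name cutadapt 1.8, STAR 2.5.2b, HTSeq 0.6.1 and GRCm38; the annotation is not given in the sources used here. The 5 summary lines after the genes were left out; reads assigned to no gene were 2.53 to 5.11% of the reads on genes, and entries marked as not unique amounted to 47.3 to 65.8% of them, so counts of genes with close copies are uncertain. Positions, exons and symbols came from GENCODE M21 (GRCm38), which held 48349 of 48709 identifiers.

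edgeR 4.0.16 in R 4.3.3 was run on all genes with TMM, filterByExpr, glmQLFit (robust) and glmQLFTest, with p-values adjusted (Benjamini-Hochberg) over the 13699 genes that passed the filter. The standard error is the log2 fold change divided by the square root of F, and the 95% confidence interval uses the fitted degrees of freedom. The study used limma's moderated test, run here as limma 3.58.1. Other alternatives were DESeq2 1.42.0, limma-trend with a prior count of 2, RLE, upper-quartile or no factors, no filter, a filter at a mean of 1 CPM, non-robust estimation, the replicate number as a block, each library left out and an adjusted p of 0.10.

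The genes named are the 10 members, Ddi2, the genes of the wider list that passed, and up to 12 more with the highest RPKM in their role, with the 3 genes most like Nr1h4. Members and lists were chosen with earlier results of these data known. Dbp, Per3, Nr1d1, Arntl, Xist, Hba-a1, Stab2, Slc10a2, Fabp6, Fgf15 and the Y-linked genes were named outside that rule or after their values were seen. In data simulated from these libraries, edgeR recovered 176 of 192 genes given a log2 change of 2 among 13699, with 21 of 197 calls false. False calls thus made up 10.7%, above the share that the adjusted threshold allows. The largest log2 difference among the 10 members was 0.88, for Nr0b2. The recovery therefore does not tell how often differences of the members' size would be found, because changes of that size were not simulated. With 2 libraries per group, p-values rest on the spread between these livers, moderated towards a trend over all genes. So few livers limit precision. The 2 libraries of each group were distinct, with a chi-square of 64.7 (WT) and 34.7 (DDI2-KO) for each degree of freedom.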

Additional observations from a re-analysis of the deposited data

How the results depend on the processing

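The count of the 10 members past the threshold was 0 in edgeR and under every alternative except the replicate block, where it was 1. That gene was Cyp8b1 (log2 fold change -0.70, adjusted p = 0.0424 from edgeR with the block). The replicate numbers share no stated animal, litter or day, and the differences between libraries 1 and 2 of WT and of DDI2-KO correlated at 0.058 across genes, so the block was not taken as pairing; it called 1108 genes in all and 7 of the wider list. Over all genes the count of 346 was 911 under DESeq2, 136 under limma-voom, 139 under limma-trend, 1544 without the filter on low counts, 152 without robust estimation and 1281 at an adjusted p of 0.10. It ranged from 153 to 631 with one library left out. With upper-quartile factors 126 genes were higher and 191 lower, and with library totals 230 and 148, against 182 and 164. In the wider list the count of 1 was 2 with library totals, 8 under DESeq2, 7 without the filter, 7 at 0.10 and 2 to 4 with one library left out; the cause was not tested. Beside the leave-one-out values of the report, the range over single libraries left out was -1.21 to 0.061 for Cyp7a1, -1.08 to 0.40 for Cyp7b1, -2.14 to 0.64 for Cyp8b1, -0.12 to 0.48 for Slc10a1, -0.71 to 0.19 for Slco1b2, -0.17 to 0.36 for Abcb11, -0.61 to 0.057 for Abcg5, -0.34 to 0.36 for Rxra (-0.053 without WT library 2), -0.097 to 0.089 for Ephx1 and -0.30 to 0.17 for Slco2b1 (0.082 without DDI2-KO library 2). Rxra was also at -0.0085 with upper-quartile factors, and Ephx1 at 0.042 with library totals, 0.0036 under DESeq2 and 0.0033 without the filter. Sult2a1 passed in 4 and Sult2a8 in 2 of 14 alternatives.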
